A study of Mus musculus with 6 samples.

Results

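The nucleoporins and nuclear transport receptors were taken here as 52 gene symbols of the 21526 in a table of RNA-seq read counts from mouse stomach. The rule reads only the symbol and took symbols that begin with Nup, Ipo, Xpo or Tnpo and a number, Kpna and Kpnb symbols, Xpot, and Ran, Ranbp1, Ranbp2, Rcc1, Tpr, Ndc1, Pom121 and Cse1l. By role they comprise 25 nucleoporins, 24 transport receptors and 3 genes of the Ran cycle. The table lists 2 more nucleoporins under the older symbols Nupl1 and Nupl2, which the rule left out and which are described with the pathway genes.

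RNA came from uncultured epithelial cells of the gastric corpus, in 3 libraries of normal stomach (Normal) and 3 libraries of Yap-activated gastric cancer. Mice of the Normal group were WT. Mice of the Yap-activated group had the genotype CluCreERT2;R26rtTA;HA-Yap+, that is, a tamoxifen-dependent Cre recombinase at the Clu gene, rtTA, an activator that needs doxycycline, at Rosa26, and a Yap transgene with an HA tag. Both groups received 2 mg of tamoxifen on 5 consecutive days and doxycycline food for the 14 days before the endpoint. The WT mice lacked the Cre and rtTA alleles, and effects of these alleles and of Yap cannot be told apart. Recombination is limited to cells in which Clu drives the Cre, and neither the share of such cells nor the age of the mice was stated in the labels. The labels do not say that the libraries of a group came from separate mice, so the p-values rest on a spread between libraries that could be technical.

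The nuclear pore is a ring built of many copies of each nucleoporin: a Y complex and an inner ring form its scaffold, phenylalanine-glycine-rich nucleoporins fill the channel, and filaments and a basket extend to the cytoplasm and the nucleoplasm. Importins bind cargo in the cytoplasm and release it in the nucleus when they meet Ran bound to GTP, while exportins need Ran-GTP to bind theirs. Rcc1, on chromatin, loads Ran with GTP, so the direction of transport depends on the Ran cycle.

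The Normal libraries held 36815754 to 48440033 counts each and the Yap-activated ones 25580734 to 44295619. Levels are given as TMM-scaled CPM, counts relative to a common library size, and differences as the log2 fold change of Yap-activated over Normal with its standard error (SE). Genes were tested with edgeR's quasi-likelihood test, and a gene was called at an adjusted p (Benjamini-Hochberg, over all 14600 genes tested) below 0.05. The marker genes of parietal and chief cells, secretory cells of the corpus, were far lower in the Yap-activated libraries, though those tested were still detected. Of parietal cell markers 7 of 7 fell, their summed level going from 21671 to 29521 CPM in Normal to 42.9 to 61.1 CPM. Of tested chief cell markers 4 of 4 fell, from 90046 to 140545 CPM to 159 to 194 CPM, while Lipf was at 0 in every library. Of 14 markers of proliferating cells 13 rose, with a summed level of 297 to 351 CPM in Normal and 623 to 946 CPM in Yap-activated libraries. Immune cell markers summed to 121 to 129 CPM in Normal and 147 to 797 CPM in Yap-activated libraries, with 6 of 10 tested higher. All 6 endothelial markers fell, their summed level going from 101 to 121 CPM to 23.8 to 41.8 CPM. Of 8 markers of fibroblasts and smooth muscle 4 fell and 4 were not called. Those not called were Col1a1, at -0.43 on the log2 scale, and Des, Pdgfra and Dcn, at 0.71, 0.25 and 0.20. The sum of all 8 went from 730 to 1039 CPM to 373 to 659 CPM. The part of these cell types in the results that follow was not tested, and in bulk RNA fewer cells of a type and less RNA per cell cannot be told apart.

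Of the 51 members tested, 25 were higher in Yap-activated libraries, against a background of 29.8% of all genes called higher. A further 7 members were lower, against a background of 29.7% called lower, and 19 were not called. Calls in either direction made up 62.7% of members, near the 59.5% of all genes, and most of the members' calls were higher. The groups did not overlap at 39 of the 51 members, against 67.6% of all genes. The median log2 fold change of the members was 0.36, and that of all genes tested was 0.01. By role, 17 of 25 nucleoporins and 3 of 3 Ran cycle genes were higher, while the 23 tested transport receptors held 5 higher, 6 lower and 12 not called. Kpna7, an importin alpha of oocytes and early embryos, was too low to pass the filter, with counts of 1, 0 and 0 in Normal and 3, 6 and 16 in Yap-activated libraries. When no filter on low counts was used, Kpna7 was called higher on these few counts.

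**Figure D1:**
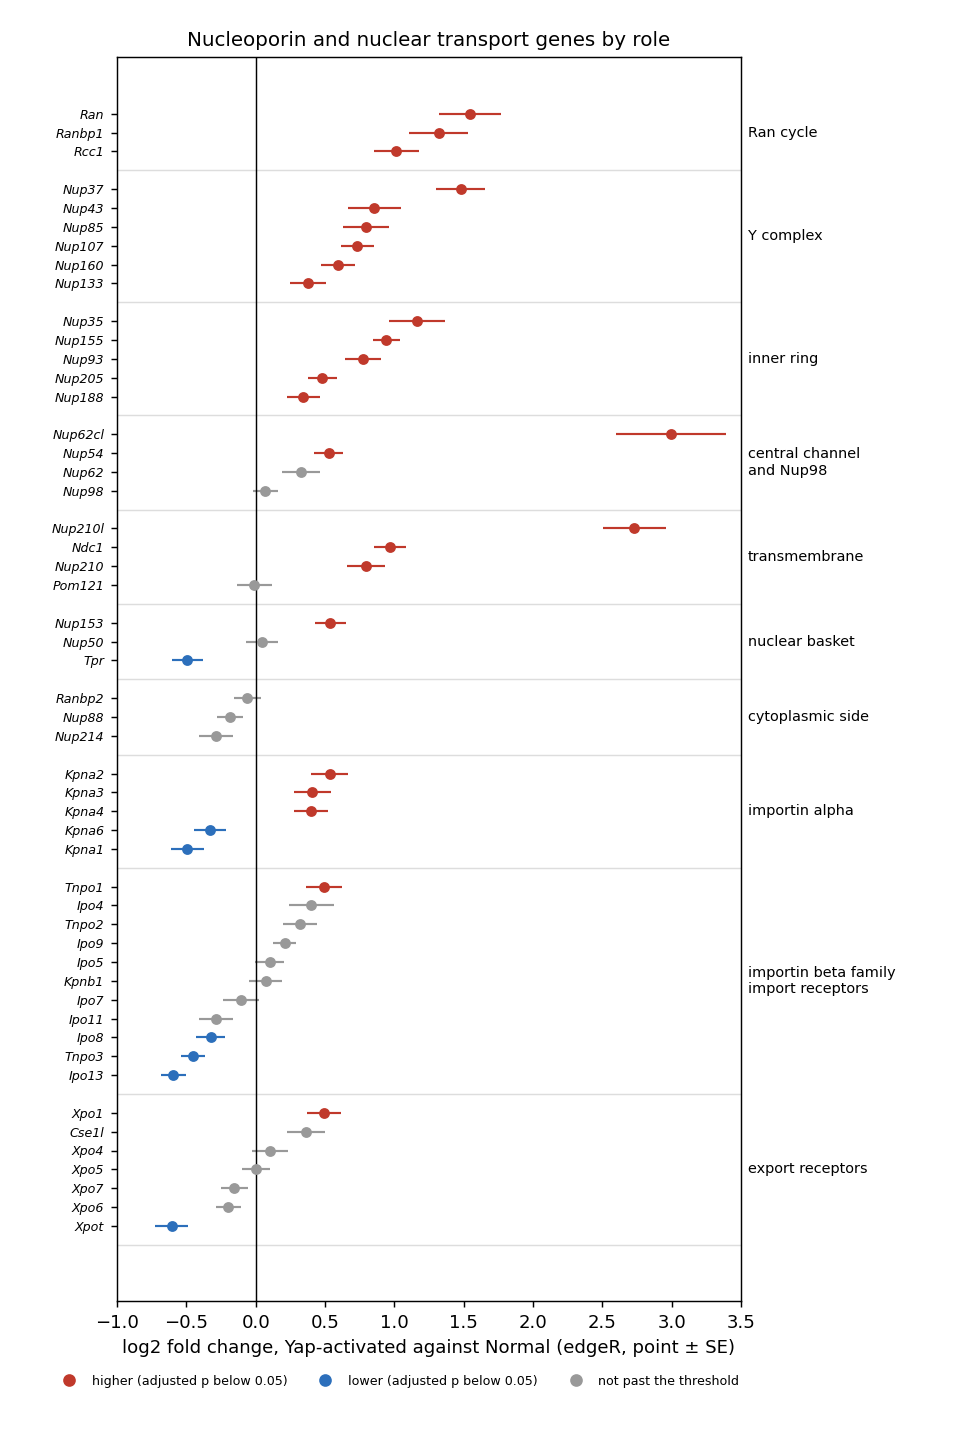
Log2 fold change of Yap-activated over Normal (horizontal axis, point ± SE, edgeR with TMM scaling) for the 51 members tested, grouped by role. All Ran cycle, Y complex and inner ring genes lie to the right of 0, cytoplasmic-side nucleoporins lie at or left of it, and transport receptors lie on both sides. With scaling by library totals alone all genes shift right and none of the members is called lower. Then 11 members change sign, among them Tnpo3, Ipo8, Kpna6 and the cytoplasmic-side Nup88, Nup214 and Ranbp2.

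The scaling sets where 0 lies. When libraries were scaled by their totals alone, the median over all genes tested moved from 0.01 to 0.50 and that of the members from 0.36 to 0.85, with 42 members called higher and 0 lower, against 51.5% of all genes called higher and 15.7% lower. The distance between the medians of the members and of all genes was 0.35 with TMM and 0.34 with library totals. Directions below are therefore relative to the bulk of genes. Shares among a few genes within a library, given where they apply, do not depend on the scaling. A share of all counts, however, compares libraries as library totals do.

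The Ran cycle genes rose together and were among the largest rises. Ran, the small GTPase that gives transport its direction, lies on the plus strand of chromosome 5 from 129020069 to 129024323 (GRCm38). Its level was 94.5, 82.6 and 70.2 CPM in Normal and 271, 286 and 166 CPM in Yap-activated libraries. Every Yap-activated library was above every Normal one, with Yap-activated replicate 3 well below the other two. Ran rose by 1.55 (SE 0.22, adjusted p = 0.000661), or 2.92-fold. Ranbp1, which binds Ran-GTP and helps its GTP to be hydrolysed in the cytoplasm, had 17.6, 15.8 and 14.4 CPM in Normal and 49.8, 42.0 and 27.7 CPM in Yap-activated libraries. The groups were again apart, and replicate 3 was again the lowest of the Yap-activated libraries. It rose by 1.32 (SE 0.21, adjusted p = 0.00118). Rcc1, the exchange factor, had 30.9, 25.3 and 20.8 CPM in Normal and 54.8, 56.0 and 45.0 CPM in Yap-activated libraries, with no overlap. It rose by 1.02 (SE 0.16, adjusted p = 0.00108). A processed pseudogene of Ran, Gm13461, matches 97.3% of 662 aligned transcript bases and has no row of its own in the table. Whether any of its reads were counted with Ran is not known.

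**Figure D2:**
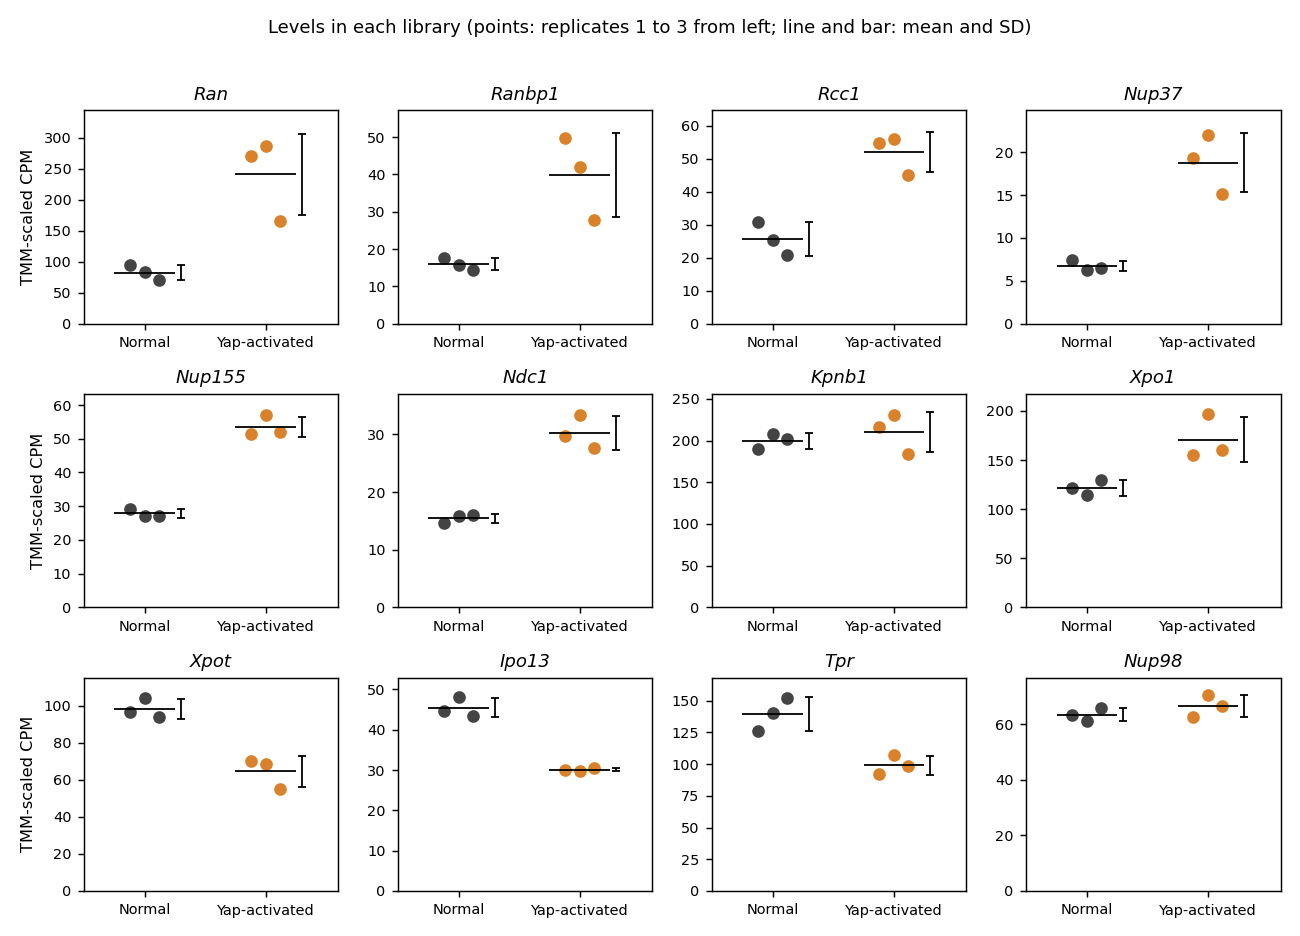
TMM-scaled CPM (vertical axes, from 0) of 12 members in each library, with points for replicates 1 to 3 from left to right and a line and bar for the mean and SD of each group (n = 3). The Ran cycle genes, Nup37, Nup155, Ndc1 and Xpo1 lie higher in all 3 Yap-activated libraries, Xpot, Ipo13 and Tpr lie lower, and Kpnb1 and Nup98 overlap; with library totals alone Xpot, Ipo13 and Tpr are no longer called.

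Expressed per kilobase of the longest protein-coding transcript, Ran was level with the most abundant receptor in Normal libraries and stood well above it in Yap-activated ones. Ran had 34.0 CPM per kilobase in Normal and 99.4 in Yap-activated libraries, and Kpnb1, the importin beta that carries most classical cargo together with importin alpha, had 33.9 and 35.7. Without any length or scaling, there were 0.499, 0.398 and 0.347 Ran counts for each Kpnb1 count in the Normal libraries and 1.25, 1.24 and 0.902 in the Yap-activated ones. The ratio was thus higher in all 3 Yap-activated libraries, with means of 0.415 ± 0.0773 and 1.13 ± 0.199 (SD, n = 3); the exact 2-sided permutation test gave p = 0.1, its minimum for 3 against 3 libraries. The pair sets a gene called higher against a gene that was not called, so the ratio is no separate test of the rise of Ran.

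All 3 Ran cycle genes and Nup107, a Y complex member that rose, have a match to the NRF1 motif (GCATGCGC) in the RefSeq promoter window, 250 bases before to 50 after the start. NRF1 is a transcription factor of housekeeping genes. The stretches that hold the match in Ran, Ranbp1 and Nup107 are shown because this motif had the largest ratio of its share in members to that in all promoters among the motifs that more than 1 member held; they were picked after the values were seen. The match of Rcc1 lies after the start and is not shown. Capitals mark the motif letters, and where a match on each strand overlaps, the whole overlapped run is in capitals.
Ran, chr5:129019936-129020045, plus strand, bases -220 to -111 of the RefSeq start, GRCm38.p6: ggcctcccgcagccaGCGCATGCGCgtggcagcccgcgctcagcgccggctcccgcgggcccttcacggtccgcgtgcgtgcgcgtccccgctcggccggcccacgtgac
Ranbp1, chr16:18248739-18248848, minus strand, bases -154 to -45, GRCm38.p6: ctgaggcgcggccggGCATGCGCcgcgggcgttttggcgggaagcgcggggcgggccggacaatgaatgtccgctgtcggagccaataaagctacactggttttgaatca
Nup107, chr10:117792706-117792785, minus strand, bases -80 to -1, GRCm38.p6: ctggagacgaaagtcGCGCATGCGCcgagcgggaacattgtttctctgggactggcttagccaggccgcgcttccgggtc
In the Ran stretch an E-box, CACGTG, the core letters bound by Myc and related factors, begins at base -118.

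Promoters in the RefSeq table matched 42 of the 52 members by symbol. Searched on both strands, the NRF1 motif was in the promoters of 7 of 42 members (16.7%) and of 3.05% of all 27025 genes in the table. The E-box CACGTG was in 9 of 42 members (21.4%) and 8.09% of all genes. The TEAD motif GGAATG, the letters bound by the DNA-binding partners of Yap, was in 6 of 42 members (14.3%) and 16.6% of all genes. CCAAT was in 22 of 42 (52.4%) and 41.1%, and the E2F motif TTTCGCGC was in 1 of 42 (2.38%) and 0.374%. Member promoters had a median GC content of 64.3% and all promoters 52.7%, and the shares were not matched for it. By call, the NRF1 motif was in 4 of the 20 matched members that were higher, 0 of the 5 that were lower and 3 of the 16 not called, the latter being Nup50, Nup62 and Xpo5. The E-box was in 4 of the 20, 1 of the 5 and 4 of the 16, and the TEAD motif in 4 of the 20, 1 of the 5 and 1 of the 16. These are matches of letters in a window and were not measured as binding.

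Of the Y complex, the outer scaffold of the pore, all 6 members that the symbol rule takes were called higher, with log2 fold changes from 0.38 to 1.48; its subunits with other names are given with the pathway genes. Nup37, a small peripheral subunit of the complex on chromosome 10 (88146992 to 88178390, plus strand), had 7.46, 6.27 and 6.51 CPM in Normal and 19.3, 22.0 and 15.2 CPM in Yap-activated libraries. The lowest Yap-activated library was above 2 times the highest Normal one. Its rise was 1.48 (SE 0.18, adjusted p = 0.000237), the largest of the scaffold. Nup85, the most abundant of the 6 per kilobase, had 33.3, 26.5 and 24.9 CPM in Normal and 52.0, 55.8 and 39.2 CPM in Yap-activated libraries. Normal replicate 1 and Yap-activated replicate 3 came closest to each other, and the groups did not overlap. Nup85 rose by 0.80 (SE 0.17, adjusted p = 0.00428). Nup43, another peripheral subunit, rose by 0.86, and Nup107 and Nup160, of the core of the Y, by 0.73 and 0.59. Nup133, which forms the end of its stem, rose least, by 0.38 (adjusted p = 0.0385). Its call was lost without Normal replicate 1, 2 or 3 or Yap-activated replicate 2 (adjusted p = 0.0763, 0.113, 0.119 and 0.120), and with no filter on low counts (adjusted p = 0.0524).

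The inner ring, which anchors the channel to the membrane of the pore, had 5 of 5 members higher, by 0.34 to 1.16. Nup155, a membrane-binding linker of the ring on chromosome 15 (8109273 to 8161247, plus strand), had 29.3, 27.0 and 27.2 CPM in Normal and 51.5, 57.1 and 51.9 CPM in Yap-activated libraries. The spread within each group was narrow beside the gap between them. Nup155 rose by 0.94 (SE 0.10, adjusted p = 0.000104). Nup93, which ties the ring to the channel nucleoporins, had 31.9, 25.7 and 24.2 CPM in Normal and 45.1, 50.1 and 44.5 CPM in Yap-activated libraries, and it rose by 0.77 (SE 0.13, adjusted p = 0.00133). Its groups were apart, with Normal replicate 1 the highest Normal library. Nup35, a small membrane-binding subunit, rose by 1.16 from a low level of 2.83 ± 0.283 to 6.34 ± 0.568 CPM (SD, n = 3). A near-identical gene, Gm4353, matches 99.6% of 1547 aligned bases of Nup35 and stood at 1.18 ± 0.275 and 1.75 ± 0.366 CPM in the table, so reads may be split between them. Nup205 and Nup188, related large scaffold proteins of the ring, rose by 0.48 and 0.34. The call of Nup188 (adjusted p = 0.0351) was lost without Normal replicate 1, 2 or 3 or Yap-activated replicate 1 or 2 (adjusted p = 0.0644, 0.116, 0.110, 0.0599 and 0.115).

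Of the channel nucleoporins and Nup98, 2 of 4 were called higher and none lower. Nup62, the hub of the channel complex, had 27.7, 27.2 and 26.3 CPM in Normal and 36.9, 37.4 and 27.5 CPM in Yap-activated libraries. Yap-activated replicate 3 lay among the Normal libraries, so the groups overlapped. It stood at a log2 fold change of 0.33 (SE 0.14, adjusted p = 0.0699), and without Yap-activated replicate 3 it was 0.46 (adjusted p = 0.00604). Nup54, its partner in the channel, rose by 0.53 (adjusted p = 0.00337). Nup62cl, an X-linked gene related to Nup62 (140006805 to 140062712, minus strand), was near the floor in Normal at 0.175, 0.356 and 0.474 CPM and had 3.15, 2.36 and 2.57 CPM in Yap-activated libraries. All 3 Yap-activated libraries were above 2 CPM and no Normal library reached 0.5 CPM. Nup62cl had the largest rise of all members, 2.996 (SE 0.40, adjusted p = 0.00042), at a level far under that of Nup62. Nup98, a channel nucleoporin that also binds messenger RNA export factors, had 63.2, 61.2 and 65.8 CPM in Normal and 62.5, 70.5 and 66.6 CPM in Yap-activated libraries. Yap-activated replicate 1 lay among the Normal libraries and the other two above them, so the groups overlapped, with a log2 fold change of 0.07 (SE 0.09, adjusted p = 0.535).

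Of the cytoplasmic side, none of the 3 members that the symbol rule takes was called, and all 3 had log2 fold changes at or under 0 with TMM and above 0 with library totals alone. Nup88, which docks Nup214 on the cytoplasmic face, had 82.7, 80.5 and 85.2 CPM in Normal and 70.9, 79.6 and 68.1 CPM in Yap-activated libraries. The groups were apart by less than 1 CPM at their nearest libraries. The log2 fold change of Nup88 was -0.18 (SE 0.10, adjusted p = 0.132), that of Nup214, a docking site for exportins, -0.28 (adjusted p = 0.0794), and that of Ranbp2, the giant filament protein and SUMO ligase, -0.06 (adjusted p = 0.629). Without Yap-activated replicate 2, Nup214 was called lower at -0.39 (adjusted p = 0.0307).

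The nuclear basket split in its directions. Tpr, the coiled-coil protein that forms the basket's filaments, lies on chromosome 1 (150392838 to 150449935, plus strand) and had 126, 140 and 153 CPM in Normal and 92.1, 107 and 98.5 CPM in Yap-activated libraries. All 3 Yap-activated libraries were below the lowest Normal one. Tpr fell by 0.49 (SE 0.11, adjusted p = 0.0061), the only nucleoporin of 25 called lower, and with library totals alone it stood at -0.00121 and was not called. Nup153, which anchors Tpr at the ring, had 50.4, 48.8 and 54.5 CPM in Normal and 75.1, 82.5 and 65.4 CPM in Yap-activated libraries. Its groups did not overlap, and it rose by 0.54 (SE 0.11, adjusted p = 0.00411). Nup50, a cofactor of importin cargo release, overlapped between groups at 0.04 (adjusted p = 0.76). Counted within each library, there were 0.400, 0.349 and 0.357 Nup153 counts for each Tpr count in Normal and 0.816, 0.770 and 0.664 in Yap-activated libraries. This ratio was higher in 3 of 3 Yap-activated libraries (2-sided exact permutation p = 0.1, the smallest possible here) and does not depend on the scaling. Nup153 lay higher and Tpr lower in every Yap-activated library, so the separation of the ratio follows from the values above and is no further support.

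Of the transmembrane nucleoporins, 3 of 4 rose. Ndc1, which anchors the pore in the nuclear membrane, had 14.6, 15.8 and 15.9 CPM in Normal and 29.7, 33.3 and 27.6 CPM in Yap-activated libraries. The lowest Yap-activated library was well above the highest Normal one, and Ndc1 rose by 0.97 (SE 0.12, adjusted p = 0.000254). Nup210, a glycoprotein of the pore membrane, rose by 0.79 from 17.0 ± 0.440 to 29.5 ± 4.54 CPM (SD, n = 3). Nup210l, a paralog of Nup210 on chromosome 3 (90104132 to 90212048, plus strand), had 2.62, 2.38 and 2.62 CPM in Normal and 21.5, 16.7 and 12.5 CPM in Yap-activated libraries. The Normal libraries were within 0.3 CPM of each other, and all Yap-activated libraries were several times higher. Nup210l rose by 2.73 (SE 0.23, adjusted p = 4.16e-05), which is 6.64-fold and the smallest p of the members. Pom121, also an anchor of the pore, had 37.1, 44.5 and 44.0 CPM in Normal and 41.2, 46.8 and 36.8 CPM in Yap-activated libraries. The groups of Pom121 overlapped fully, at a log2 fold change of -0.01 (SE 0.13, adjusted p = 0.946) whose sign turned positive with DESeq2 size factors, upper quartile scaling and library totals. Per the GENCODE annotation 11.9% of Pom121 exon bases overlap Nsun5 on the opposite strand, and Nsun5 fell by 0.62.

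The importin alpha genes, adaptors that read the classical nuclear import signal and hand it to Kpnb1, moved in opposite directions. Kpna2 had 24.6, 26.7 and 23.1 CPM in Normal and 36.2, 41.3 and 30.3 CPM in Yap-activated libraries. The groups of Kpna2 did not overlap, and it rose by 0.53 (SE 0.14, adjusted p = 0.0104). Kpna1 had 67.0, 82.4 and 80.7 CPM in Normal and 58.5, 56.6 and 48.5 CPM in Yap-activated libraries. Its lowest Normal library, replicate 1, remained above the highest Yap-activated one, and Kpna1 fell by 0.49 (SE 0.12, adjusted p = 0.00886), a change that library totals alone reduced to -0.0057 with no call. Kpna3 and Kpna4, close paralogs of each other, rose by 0.41 (adjusted p = 0.0299) and 0.40 (adjusted p = 0.0227), and Kpna6, which is most like Kpna1, fell by 0.33 (adjusted p = 0.0376) but stood at 0.16 with library totals alone. Each of these 3 calls was lost when any 1 of several libraries was left out, which also leaves fewer libraries to test. Kpna3 was lost without Normal replicate 1, 2 or 3 or Yap-activated replicate 1 or 2 (adjusted p = 0.108, 0.0803, 0.0546, 0.0504 and 0.092). Kpna4 was lost without Normal replicate 1 or 2 or Yap-activated replicate 2 (adjusted p = 0.0853, 0.0781 and 0.0687). Kpna6 was lost without Normal replicate 2 or 3 or Yap-activated replicate 1 or 3 (adjusted p = 0.133, 0.105, 0.0735 and 0.112).

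The share of each gene in the summed importin alpha counts per kilobase of a library shows these genes relative to each other, free of scaling. Shares add up to a fixed whole, so a gain of some genes lowers the shares of the others. They do not show that the level of Kpna1 or Kpna6 fell. Kpna1 made up 23.1, 24.7 and 24.6% in the Normal libraries and 16.6, 14.7 and 16.2% in the Yap-activated ones. Kpna6 made up 20.5, 21.4 and 20.9%, and then 15.2, 15.01 and 15.9%. Kpna2 made up 20.7, 19.7 and 17.3%, and then 25.2, 26.3 and 24.8%. In no case did the groups overlap, and Kpna1 went from the largest share in every Normal library to behind Kpna2, Kpna3 and Kpna4 in every Yap-activated one. Mean differences of Yap-activated minus Normal were -8.29 percentage points for Kpna1, -5.56 for Kpna6, 6.20 for Kpna2, 3.76 for Kpna3 and 3.79 for Kpna4. Each had a 2-sided exact permutation p of 0.1, the smallest that the design allows, and 0.1 after Benjamini-Hochberg adjustment over the importin alpha genes. The ranks rest on the longest protein-coding transcript as length: by exon union length Kpna1 had the lowest mean level of the 5 over all 6 libraries, 7.73 CPM per kilobase against 10.1 to 13.1. The size for Kpna2 also depends on length, being 2.72 points without length scaling, and Kpna4 then gained 7.43 points. Kpna2 has 5 near-identical copies in the annotation, of which Gm10184 (99.9% over 1968 bases) is in the table at 0.285 ± 0.0841 and 0.276 ± 0.0556 CPM (SD, n = 3).

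**Figure D3:**
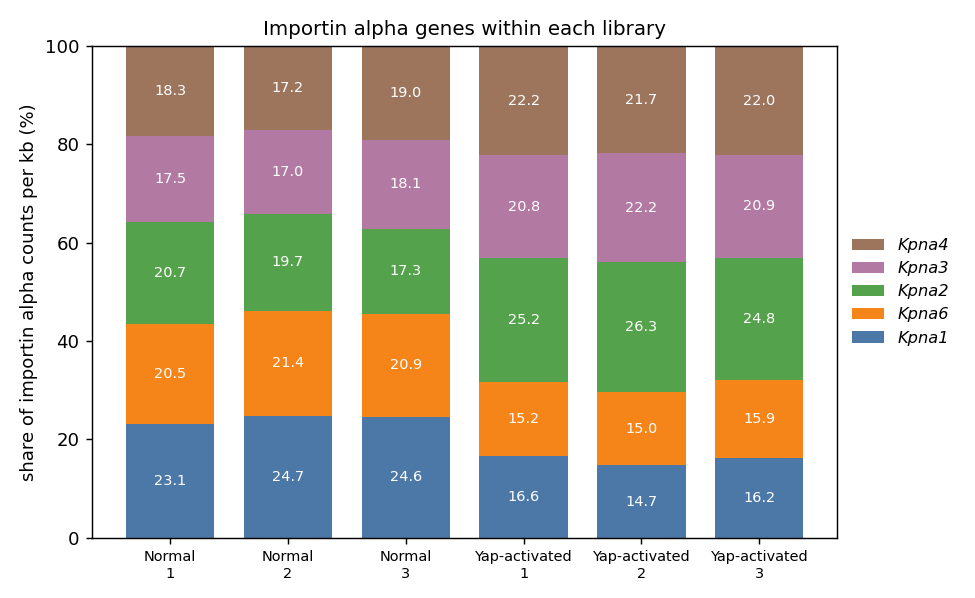
Share (vertical axis, %) of Kpna1, Kpna6, Kpna2, Kpna3 and Kpna4 in the importin alpha counts per kilobase of each library (bars, 3 Normal and 3 Yap-activated), with the share printed in each segment; Kpna7, at most 0.204%, is not drawn. The 2 lowest segments, Kpna1 and Kpna6, shrink in all 3 Yap-activated libraries and the other 3 grow.

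Import receptors of the importin beta family were mostly not called: 1 of 11 was higher, 3 were lower and 7 were not past the threshold. That is 9.09% higher and 27.3% lower, against 29.8% and 29.7% of all genes, so the share lower is near the background. The number higher was 4 with upper quartile scaling, 2 with DESeq2 and 0 when tested against a 1.5-fold change. Kpnb1 had 189, 208 and 202 CPM in Normal and 216, 231 and 184 CPM in Yap-activated libraries. Yap-activated replicate 3 was the lowest of all 6 libraries, so the groups overlapped, at a log2 fold change of 0.07 (SE 0.12, adjusted p = 0.622). Tnpo1, transportin 1, which imports RNA-binding proteins, had 98.5, 120 and 124 CPM in Normal and 145, 180 and 156 CPM in Yap-activated libraries. It was higher in all 3 Yap-activated libraries and rose by 0.50 (SE 0.13, adjusted p = 0.0122). Ipo13, a receptor that can both import and export, lies on chromosome 4 (117894486 to 117914999, minus strand) and had 44.7, 48.1 and 43.5 CPM in Normal and 29.9, 29.8 and 30.6 CPM in Yap-activated libraries. The Yap-activated libraries were within 1 CPM of each other and all below the Normal ones. Ipo13 fell by 0.59 (SE 0.09, adjusted p = 0.000903), the smallest p among the receptors, and by 0.10 with no call when scaled by library totals alone.

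Tnpo3, which imports splicing factors of the SR family, had 69.1, 71.3 and 69.9 CPM in Normal and 50.1, 53.8 and 49.9 CPM in Yap-activated libraries. Its libraries agreed closely within each group and did not overlap. Tnpo3 fell by 0.45 (SE 0.09, adjusted p = 0.00256), and by library totals alone its value was 0.04. Its exons overlap Irf5 on the opposite strand over 3.14% of bases, and Irf5 rose. Ipo8 fell by 0.32 (adjusted p = 0.0266) and had 0.17 by library totals; its call was lost without Normal replicate 2 or 3 or Yap-activated replicate 1 or 3 (adjusted p = 0.0805, 0.0974, 0.0625 and 0.0791). Among receptors not called, Tnpo2, a paralog of Tnpo1, was at 0.32 (adjusted p = 0.0524), Ipo4, a histone importer, at 0.40 (adjusted p = 0.064), Ipo9 at 0.21 (adjusted p = 0.0628) and Ipo11 at -0.29 (adjusted p = 0.0766). All 4 had groups that did not overlap. With DESeq2, Tnpo2 was called higher (adjusted p = 0.0305). Tnpo2 also passed when Yap-activated replicate 2 was left out (0.38, adjusted p = 0.035) and Ipo4 without Yap-activated replicate 3 (0.51, adjusted p = 0.0267). Ipo5 and Ipo7, importers of ribosomal proteins, overlapped between groups at 0.10 and -0.11.

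The export receptors were also mostly not called, with 1 of 7 higher, 1 lower and 5 not called. That is 14.3% in each direction, against 29.8% of all genes higher and 29.7% lower. Xpo1 (CRM1), which exports proteins with a leucine-rich signal, lies on chromosome 11 (23256041 to 23298249, plus strand) and had 121, 114 and 129 CPM in Normal and 155, 197 and 161 CPM in Yap-activated libraries. All Yap-activated libraries were higher, replicate 2 the most. Xpo1 rose by 0.49 (SE 0.12, adjusted p = 0.00997), and without Normal replicate 2 its adjusted p was 0.0508. Xpot, the exporter of transfer RNA, lies on chromosome 10 (121587380 to 121626332, minus strand) and had 96.7, 104 and 94.0 CPM in Normal and 70.2, 68.7 and 55.1 CPM in Yap-activated libraries. Every Yap-activated library was below every Normal one. Xpot had the largest fall of the members, 0.61 on the log2 scale (value -0.61, SE 0.12, adjusted p = 0.0029), and -0.12 with no call by library totals alone. The ratio of Xpo1 to Xpot counts within a library was 1.25, 1.09 and 1.38 in Normal and 2.21, 2.87 and 2.91 in Yap-activated libraries, with means of 1.24 ± 0.143 and 2.66 ± 0.394 (SD, n = 3; exact 2-sided permutation test, p = 0.1, its minimum). As Xpo1 lay higher and Xpot lower in every Yap-activated library, this separation follows from their values and is no further support.

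Cse1l, which returns importin alpha to the cytoplasm, had 40.6, 46.8 and 48.2 CPM in Normal and 62.5, 64.1 and 47.5 CPM in Yap-activated libraries. Yap-activated replicate 3 fell among the Normal libraries while the other two were above them. It stood at 0.36 (SE 0.14, adjusted p = 0.0527), just short of the threshold. It passed with DESeq2 (adjusted p = 0.0456), and without Yap-activated replicate 3 it was 0.49 (adjusted p = 0.00846). Xpo5, the exporter of microRNA precursors, was at 0.00152 with overlapping groups. Xpo4, Xpo7 and Xpo6 were at 0.10, -0.15 and -0.20, and the last 2 had positive values by library totals alone.

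The sizes of change were modest outside a few genes. Of the 51 members tested, 15 were called higher at over 1.5-fold and 7 at over 2-fold, where 23.7% and 16.9% of all genes tested were. Only 2 of the 51 were called lower at over 1.5-fold, where 23.5% of all genes tested were. Tested against a 1.5-fold change as the null, 9 members were higher (Nup62cl, Nup210l, Ran, Nup37, Ranbp1, Nup35, Rcc1, Ndc1 and Nup155) and 0 lower, where 17% and 16.9% of all genes passed. No transport receptor was among the 9. Values were more positive at lower Normal levels. Across the 51 members tested, the Spearman correlation of mean Normal level per kilobase with the signed log2 fold change was -0.44. Across all genes it was -0.25. These correlations describe genes measured in the same libraries, in which low counts carry wider errors. The Normal level is also the denominator of the fold change, so part of the negative sign may be built in.

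The distance between scaffold and receptors was alike in the libraries of a group. The median of the Y complex and inner ring minus the median of the importin beta family import receptors, each gene on the log2 scale relative to its Normal mean, was 0.11, -0.06 and -0.06 in Normal and 0.63, 0.73 and 0.66 in Yap-activated libraries. The Normal values lie near 0 by construction. Those of the Yap-activated libraries follow from the gene values above and are no further support. Medians of the Y complex alone were 0.80, 0.92 and 0.51 in the Yap-activated libraries and those of the inner ring 0.74, 0.89 and 0.72. Import receptors had 0.11, 0.16 and -0.12, and export receptors 0.07, 0.08 and -0.15. Replicate 3 was thus the lowest Yap-activated library for each of these 4 groups.

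**Figure D4:**
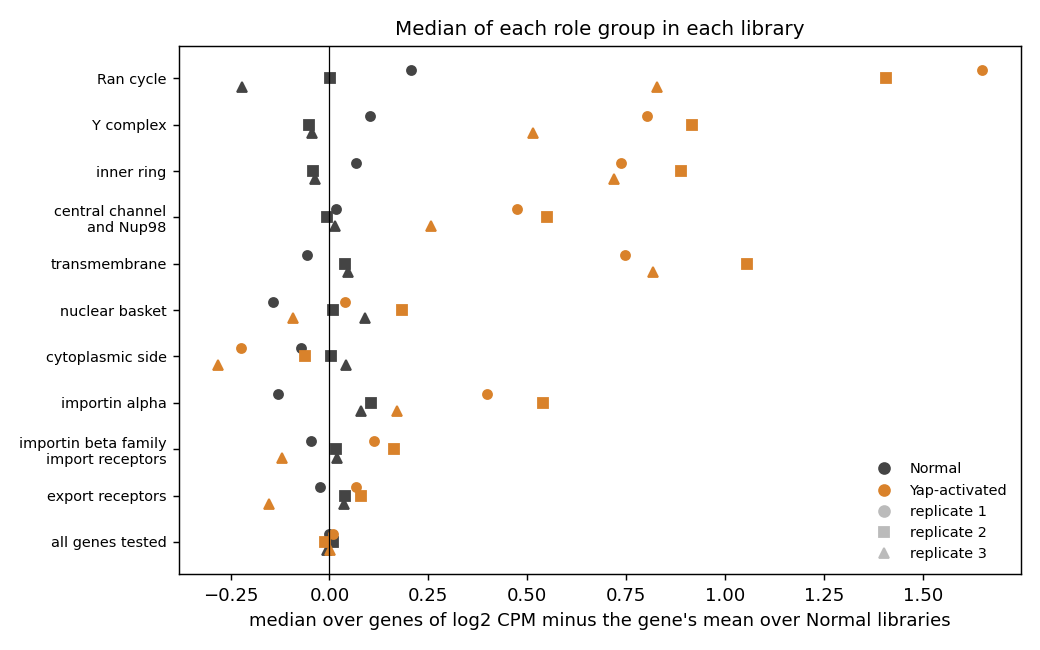
Median over the genes of each role group (rows) of log2 CPM minus the gene's mean over Normal libraries (horizontal axis), with a marker for each library, black for Normal and orange for Yap-activated, circle, square and triangle for replicates 1, 2 and 3. The Ran cycle, Y complex, inner ring, channel and transmembrane groups lie right of all Normal libraries in every Yap-activated library; the receptor groups do so in replicates 1 and 2 only, or by less. With library totals alone all Yap-activated points shift to the right.

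The order of the Yap-activated libraries was shared by most members that rose. Of the 25, 19 were lowest in Yap-activated replicate 3 and 22 were highest in replicate 2. Among all 4345 genes called higher these shares were 38.0% and 33.2%. Of the 13 proliferating cell markers called higher, 12 were lowest in replicate 3 and 12 highest in replicate 2. Mki67, a marker of cycling cells, had 130, 181 and 134 CPM in the 3 Yap-activated libraries and 77.2, 65.6 and 65.6 CPM in Normal. It is the 1 marker of the 13 that was lowest in replicate 1 and not in replicate 3. Without Yap-activated replicate 3, 28 members were called higher and 5 lower, against 28.8% and 28.9% of all genes, with a median log2 fold change of 0.46. Without replicate 2, 22 were higher and 8 lower, against 28.8% and 28.6% of all genes, with a median of 0.28. The members together held 0.222, 0.251 and 0.250% of all counts in Normal and 0.386, 0.427 and 0.360% in Yap-activated libraries. A share of all counts compares libraries as library totals do, so it carries the shift described for that scaling. Pgc, a very abundant gene in Normal, went from a mean of 111582 CPM there to 168 CPM in Yap-activated libraries. Its part in these shares was not tested. Counted outside the 50 most abundant genes, the shares were 0.408 ± 0.00485% and 0.473 ± 0.0384% (SD, n = 3; exact 2-sided permutation test, p = 0.1, its minimum).

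Genes of the same pathway that the symbol rule leaves out showed both directions, and their counts are to be read against the 29.8% of all genes called higher and 29.7% called lower. Of 8 other nucleoporins, 3 rose and 2 fell. Aaas, a nucleoporin of the cytoplasmic side bound by Ndc1, had 16.8, 14.5 and 15.4 CPM in Normal and 36.1, 37.9 and 35.8 CPM in Yap-activated libraries. It rose by 1.23 (SE 0.11, adjusted p = 4.65e-05) with no overlap, and Nupl2, also of the cytoplasmic side, fell by 0.81 (adjusted p = 0.00302). The Y complex subunits Seh1l and Ahctf1 rose by 0.33 and 0.31, and Sec13, which is shared with the coat of secretory vesicles, was at -0.06. Nupl1, the partner of Nup62 and Nup54, fell (adjusted p = 0.0493) at a level of 0.439 CPM in Normal and 0.164 CPM in Yap-activated libraries, far under its partners. Its call, just past the threshold, rests on few counts: 24, 10 and 12 in Normal and 7, 6 and 6 in Yap-activated libraries (SE 0.54).

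Of 9 other Ran and receptor cofactors, 4 rose and 1 fell. Rangrf, a Ran-binding protein at a low level, fell by 2.31 (adjusted p = 0.000945). Rangap1, the activator of Ran's GTPase, named after its values were seen because it closes the Ran cycle, rose by 0.47 (adjusted p = 0.0274), but its call was lost without any of Normal replicates 1, 2 and 3 and Yap-activated replicates 1 and 2 (adjusted p = 0.0876, 0.074, 0.0748, 0.0702 and 0.0784). Nutf2, the carrier that brings Ran back into the nucleus, was at 0.10 (adjusted p = 0.589).

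Of 21 messenger RNA export genes, 10 rose and 2 fell, 57.1% called in either direction, near the 59.5% of all genes. Thoc6, a subunit of the THO complex, had the smallest p of the list, with 10.8, 10.03 and 8.28 CPM in Normal and 26.4, 22.7 and 18.8 CPM in Yap-activated libraries, a rise of 1.22 (adjusted p = 0.000557). Mcm3ap, the scaffold of the TREX-2 complex at the basket, fell by 0.40 (adjusted p = 0.0162) but stood at 0.09 with library totals alone, and its call was lost without Normal replicate 2 or 3 (adjusted p = 0.0708 and 0.0523). Of 12 genes of the lamina and inner nuclear membrane, 8 rose and 1 fell. Lmnb1, lamin B1, had 34.6, 33.4 and 30.1 CPM in Normal and 130, 160 and 111 CPM in Yap-activated libraries and rose by 2.03 (SE 0.15, adjusted p = 2.25e-05). Tor1aip1, an inner membrane protein that binds lamins, fell by 0.45 (adjusted p = 0.0104) and stood at 0.05 with library totals alone.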

How the data were processed

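The authors deposited raw counts, whole numbers of reads for each gene symbol in each of 6 libraries, without normalization. Per the submitters' processing notes, the tools were STAR 2.4.2a and DESeq2 and the builds GRCm38 and mm10. No source used here states how reads were counted (program, strand, reads with several matches). Reads of overlapping genes and near-identical copies may therefore sit in a count. Besides those named in the results, Nup54, Tnpo1, Xpo4 and Xpot have processed pseudogenes. Ipo4 shares 55.3% of its exon bases with Gm49378 on the same strand, and Gm49378 had 0 counts in every library. Ranbp1 shares 16.9% with Gm49776 on the same strand, which has no row of its own. Libraries were stranded and poly(A)-selected, with paired 50 bp reads, per the labels' protocols. Coordinates, overlaps and copies are those of GENCODE M21 (mouse, GRCm38), and promoters from RefSeq on GRCm38.p6. Copies were matches of at least 95% identity over at least 200 bp. Protein sequences were not used here.

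Counts were tested in R 4.3.3 with edgeR 4.0.16: filterByExpr (minimum count 10), TMM, robust quasi-likelihood F-test over all genes, no other covariate, Benjamini-Hochberg threshold 0.05. The SE was obtained from F as log2 fold change / square root of F. The edgeR test was checked on simulated counts in which few genes changed, equally many up and down. The simulation held no large shift in composition, so it does not speak to the scaling of these libraries. The members and lists were chosen with earlier results of these data known. Ratios of the counts of one gene to another within a library were not among the planned results. Members given in every library are, in each role group, the smallest p in each direction and the highest level per kilobase, the 5 largest rises and falls, and Ran, Kpnb1, Xpo1, Cse1l and Nup98; Rcc1, Ndc1 and Mki67 were added after their values were seen. In each pathway list the smallest p in each direction was named, except 1 gene that is not reported here, and other list genes were picked after their values were seen. The parietal marker Gif was not used here. Depth per library limits calls for genes near the filter, such as Nup62cl and Kpna7.

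The alternatives tried were scaling by library totals, upper quartile, DESeq2 size factors or TMM leaving out the 50 most abundant genes, a filter of 1 CPM in 3 libraries or none, dispersions without robust fitting, voom (limma 3.58.1), DESeq2 1.42.0, a replicate block, each library left out, a 1.5-fold null, thinning to 25580734 counts, and for the importin alpha shares counts without length and exon union length, the last chosen after seeing the data.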

Additional observations from a re-analysis of the deposited data

How the results depend on the processing

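Apart from the 1.5-fold null and library totals, 20 of the 25 higher and 5 of the 7 lower calls were kept under every alternative run, and the rest (Nup133, Nup188, Kpna3, Kpna4 and Xpo1; Ipo8 and Kpna6) were each lost under at least 1. Leaving out 1 library gave 20 to 28 members higher and 5 to 8 lower, a median of 0.28 to 0.46, and 17 to 25 pathway genes higher and 3 to 7 lower, the 3 without Normal replicate 3. With library totals alone, 42 members were higher and 0 lower, 39 pathway genes higher and 1 lower, and 7522 genes of all higher and 2299 lower, with 76.6% of calls higher against 50.0%, and the members' median was 0.85. Values then turned positive for Ipo11 (0.20), Ipo7 (0.38), Ipo8 (0.17), Kpna6 (0.16), Nup214 (0.21), Nup88 (0.31), Pom121 (0.48), Ranbp2 (0.43), Tnpo3 (0.041), Xpo6 (0.30), Xpo7 (0.34), Mcm3ap (0.090) and Tor1aip1 (0.047). This follows from the shift of all genes. Against a 1.5-fold null, 9 members were higher and 0 lower, 6 pathway genes higher and 1 lower, and 2479 and 2462 of all genes. Values near 0 also changed sign: Pom121 was 0.000218 with DESeq2 size factors, 0.039 with upper quartile, 9.91e-05 with DESeq2 and 0.030 when thinned, and Xpo5 was -0.00395 with no filter and -0.00315 with voom. With 1 library left out they ran from -0.11 to 0.078 for Pom121, from -0.046 to 0.080 for Xpo5, from -0.00674 to 0.17 for Kpnb1 and from -0.040 to 0.12 for Nup50; the cause was not tested. With exon union length the share differences were -6.43 points for Kpna1 and -6.30 for Kpna6, and without length 2.72 for Kpna2 and 7.43 for Kpna4.

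Same-numbered libraries did not deviate together (correlations 0.0400, 0.00270 and 0.0690), so the numbers were not taken as a pairing. With the replicate block 26 members were higher and 7 lower, Nup133 lost its call (adjusted p = 0.058), Ipo4 and Tnpo2 gained one (adjusted p = 0.0237 and 0.0359), and Xpo5 was -0.00137. Beside library totals, Cse1l passed the threshold under 5 and Tnpo2 under 7 of the alternatives that kept all 6 libraries.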
